A study of Mus musculus with 9 samples.

Results

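The genes described here are 10 components of transforming growth factor beta (TGF-beta) signalling: the ligand gene Tgfb1, the receptor genes Tgfbr1, Tgfbr2 and Tgfbr3, the signal transducer genes Smad2, Smad3 and Smad4, the inhibitor gene Smad7 and the corepressor genes Ski and Skil. They were chosen by symbol among 30827 mouse genes with a named probe set, and each of the 10 had 1 probe set. Itgae, a target gene of the pathway, was followed beside them, since the question was whether any change in the pathway went with the lower Itgae of the combination treatment. The cells were pmel1 CD8+ T cells bearing Thy1.1, which carry a transgenic receptor for a gp100 peptide, and were transferred into congenic recipient mice. All recipients had 100 µg of hgp100 peptide and 400 µg of antibody. In the combination group, the antibody was 200 µg of the CD27 agonist AT124 with 100 µg of anti-PD-1 (RMP1-14) and 100 µg of anti-PD-L1 (10F.9G2). The anti-CD27 group had 200 µg of AT124, and the anti-PD-1/L1 group had 100 µg each of the PD-1 and PD-L1 antibodies, both with 200 µg of isotype control antibody. The cells were sorted from the spleen on day 4, and RNA of each mouse was put on its own whole-transcript array, for 3 mice per group. A group given peptide and isotype control alone was not analysed here, and ages of the mice were not given in the labels.

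TGF-beta is a secreted cytokine that restrains T cell activation and helps T cells take up residence in tissue. It binds the type II receptor TGFBR2, which recruits and phosphorylates the type I receptor TGFBR1, and betaglycan, encoded by Tgfbr3, can present the ligand to them. The active receptor phosphorylates SMAD2 and SMAD3, which join SMAD4 and act on genes in the nucleus. SMAD7 blocks the receptor and is itself induced by the signal, and SKI and SnoN (encoded by Skil) hold SMAD complexes in a repressed state. Itgae encodes CD103, an integrin chain that binds E-cadherin and is induced in CD8+ T cells by TGF-beta through SMAD3. These are steps of protein activity as well as of transcript level, and only transcript levels were measured.

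The promoters of 3 of the genes are shown because Tgfbr2 and Smad3 were the members that passed the test between the combination and anti-CD27, and Tgfb1 differed most from anti-PD-1/L1. Each is the 250 bases before the RefSeq gene start in GRCm38.p6, written along the gene's strand, at chr9:116175364-116175613 (minus strand) for Tgfbr2, chr9:63757995-63758244 (minus strand) for Smad3 and chr7:25686752-25687001 (plus strand) for Tgfb1. Capitals mark matches, on either strand, to the short SMAD-binding element CAGAC or to GGCGC, a GC-rich sequence that SMAD proteins can also bind.
Tgfbr2: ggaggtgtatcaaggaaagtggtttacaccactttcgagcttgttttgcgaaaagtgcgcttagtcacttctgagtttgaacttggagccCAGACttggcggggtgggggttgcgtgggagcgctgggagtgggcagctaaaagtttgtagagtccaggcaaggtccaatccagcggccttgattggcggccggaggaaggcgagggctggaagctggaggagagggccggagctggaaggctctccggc
Smad3: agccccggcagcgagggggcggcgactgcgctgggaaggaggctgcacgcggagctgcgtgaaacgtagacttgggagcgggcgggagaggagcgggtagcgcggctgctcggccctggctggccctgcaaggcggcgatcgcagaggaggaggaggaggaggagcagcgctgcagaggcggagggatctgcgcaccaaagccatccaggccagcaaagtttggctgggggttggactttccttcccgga
Tgfb1: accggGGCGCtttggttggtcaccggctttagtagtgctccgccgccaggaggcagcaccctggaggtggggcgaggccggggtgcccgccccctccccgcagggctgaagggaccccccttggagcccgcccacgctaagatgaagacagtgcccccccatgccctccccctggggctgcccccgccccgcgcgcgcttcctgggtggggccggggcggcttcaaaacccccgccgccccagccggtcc
The Tgfbr2 promoter held 1 CAGAC, 160 bases before the start, and the Tgfb1 promoter held 1 GGCGC, 245 bases before the start. In the Smad3 window, neither CAGAC nor GGCGC was found. The palindrome GTCTAGAC, which ends in the same AGAC as CAGAC but contains neither CAGAC nor GGCGC, was in none of the 3. These matches are common or rare in all promoters alike: of 32851 windows of the same length, 42.2% held CAGAC, 32.0% held GGCGC and 0.167% held GTCTAGAC. A promoter was in the table for 5 of the 10 members. The matches describe letters only, since no binding was measured.

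Levels are deposited log2 values, which were normalized together by RMA, and a difference of 1 is a change of 2-fold. Array means over the 7 measured genes of the CD8 T cell list lay between 9.86 and 9.99 in the combination, between 10.03 and 10.05 in anti-CD27 and between 8.79 and 9.34 in anti-PD-1/L1. Array means of the B cell list (5 measured genes) lay between 3.50 and 4.10, of the myeloid list (7) between 4.08 and 4.44 and of the platelet list (5) between 4.03 and 4.60. The anti-PD-1/L1 arrays stood apart from the other 6 in their positive, background, and bacterial and phage controls. Positive control probe sets averaged 6.81 ± 0.04 for the combination, 6.70 ± 0.02 for anti-CD27 and 5.75 ± 0.19 for anti-PD-1/L1 (SD, n = 3). Background probe sets averaged 3.25, 3.27 and 4.06 in the same order of groups, and bacterial and phage control probe sets averaged 8.60, 8.60 and 9.75. An exact two-sided permutation test gave p = 0.1 for each of these controls between either CD27-treated group and anti-PD-1/L1, the smallest value that 3 arrays against 3 can give. Whether these shifts contribute to the differences from anti-PD-1/L1 cannot be told apart from treatment, because the shifts and the group coincide. In bulk samples, fewer cells of a type and less RNA per cell cannot be told apart either. Between the combination and anti-CD27, positive controls differed by 0.106, negative controls by -0.141 and the SD of all genes by 0.029. Arrays did not overlap in any of these, and the exact two-sided permutation test gave p = 0.1 for each. Background (-0.019), ERCC (0.013) and bacterial and phage controls (0.002) and the median of all genes (-0.015) overlapped. The part of these shifts in the differences between those groups was not tested. The number of arrays, 3 per group, limits the precision of every value.

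**Figure D1:**
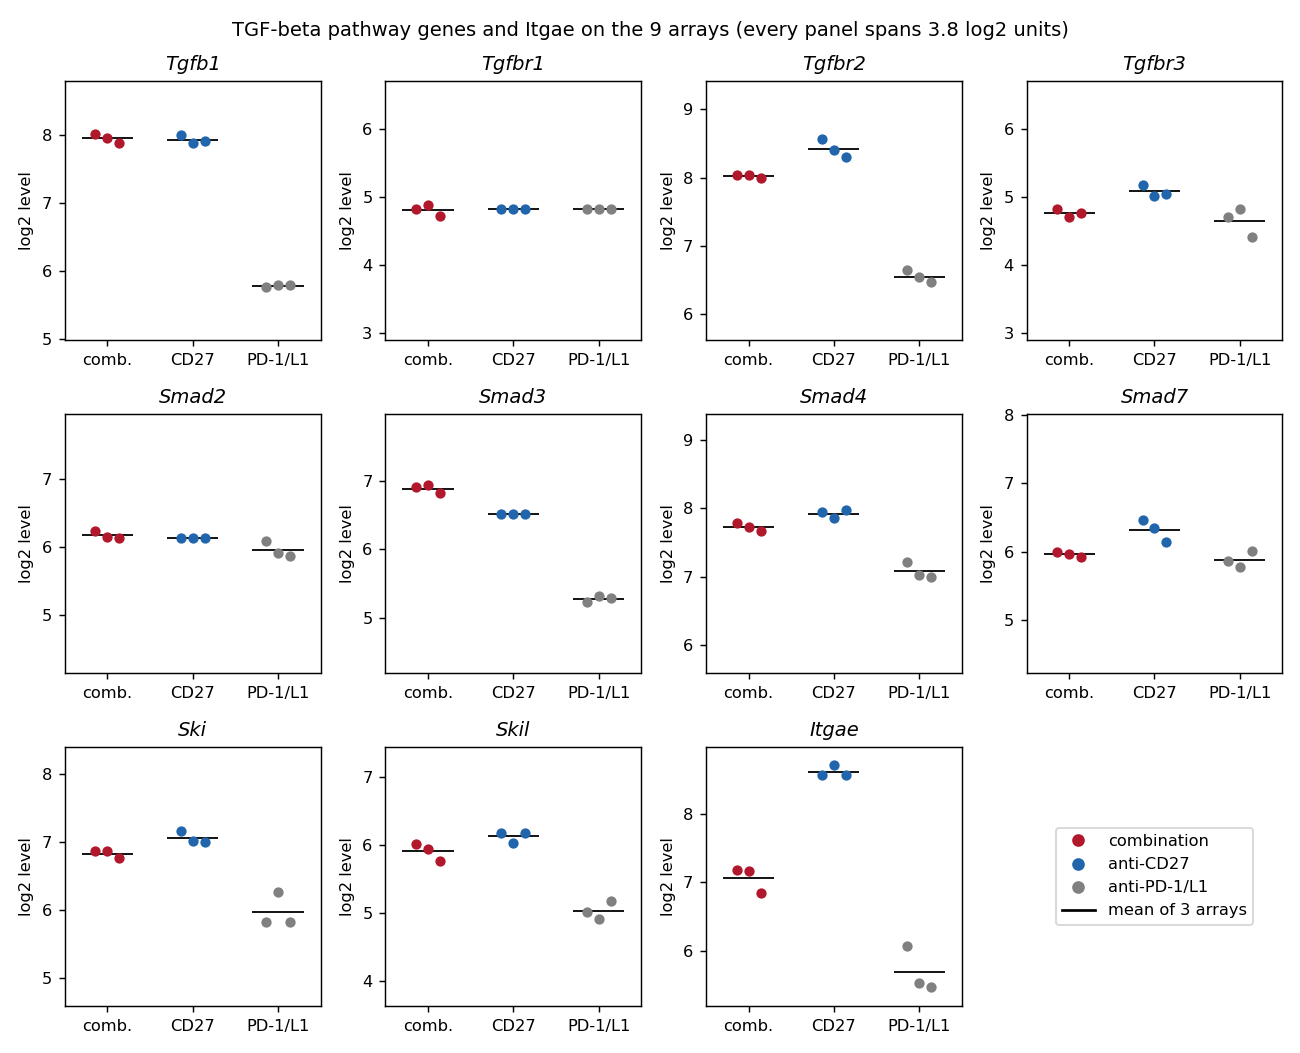
Log2 level (vertical axes, each spanning the same range) of the 10 pathway genes and Itgae on each of the 9 arrays, with the mean of each group as a line. Itgae was lower in all combination arrays than in all anti-CD27 arrays, while the pathway genes differed between those groups by 0.39 or less. The anti-PD-1/L1 arrays were lowest for Tgfb1, Tgfbr2, Smad2, Smad3, Smad4, Ski, Skil and Itgae.

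The first comparison asked what PD-1 and PD-L1 blockade added to CD27 agonism. Of the 10 genes, 2 passed the test and they moved in opposite directions: Tgfbr2 fell in the combination and Smad3 rose. Both changes were small next to that of Itgae, which fell 2.95-fold. Over all genes tested, 1.77% passed in either direction, 1.26% higher and 0.519% lower.

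Itgae had log2 levels of 7.18, 7.16 and 6.85 on the combination arrays, against 8.58, 8.72 and 8.57 on the anti-CD27 arrays. Every combination array was below every anti-CD27 array. The difference was -1.56 ± 0.16 (limma's SE), with an adjusted p = 0.00311 over all genes in limma. Haspin, a protein kinase gene that overlaps Itgae in the RefSeq annotation, has its own probe set. Its difference of 0.60 ± 0.23 did not reach the threshold (adjusted p = 0.403, limma). Array means of several marker lists were also lower in the combination than in anti-CD27, without overlap. Those of the 2 measured CD4 and regulatory T cell genes lay between 4.48 and 4.56 in the combination and between 4.75 and 4.81 in anti-CD27. The B cell means were 3.50 to 3.54 in the combination and 3.59 to 3.63 in anti-CD27, and the CD8 T cell means 9.86 to 9.99 and 10.03 to 10.05. Cd4 was below the background mean in both groups, so the CD4 and regulatory T cell list rests on Ikzf2. That gene, which encodes the transcription factor Helios, fell by 0.37 (adjusted p = 0.0415, limma). Of the other lists, Itgam, an integrin gene of myeloid cells, rose by 0.61 (adjusted p = 0.00103, limma) and Pecam1, an endothelial adhesion gene that T cells also express, fell by 0.75 (adjusted p = 0.00262, limma). Of the 7 myeloid genes, 3 differed upward and 4 downward, and Itgam alone passed. The myeloid array means were 4.19 to 4.29 in the combination and 4.08 to 4.24 in anti-CD27, and those of the 5 stromal and endothelial genes 4.58 to 4.65 and 4.77 to 4.85. The part of such cells in the Itgae difference was not tested.

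The ligand gene did not pass between these groups. Tgfb1 had log2 levels of 8.01, 7.95 and 7.87 on the combination arrays, against 8.00, 7.87 and 7.90 on the anti-CD27 arrays. The groups overlapped, and the difference was 0.02 ± 0.06 with a 95% interval from -0.11 to 0.15 (adjusted p = 1, limma). The sign of so small a difference turned under quantile normalization, where it was -0.09.

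Of the receptors, Tgfbr2 was lower in the combination. It had log2 levels of 8.04, 8.04 and 7.99 on the combination arrays, against 8.56, 8.41 and 8.30 on the anti-CD27 arrays. No array of either group overlapped the other group. The difference was -0.39 ± 0.07, a fall of 1.31-fold, with an adjusted p = 0.0409 (limma). This call was near the threshold: it was lost without anti-PD-1/L1 replicate 2, without anti-CD27 replicate 1 or 2, and without any 1 of the combination arrays, with adjusted p up to 0.159 (limma), and under median centring, with all transcript probe sets and with a trended, robust fit, with adjusted p up to 0.0829 (limma).

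Tgfbr3, the betaglycan gene, had log2 levels of 4.83, 4.70 and 4.77 on the combination arrays, against 5.18, 5.02 and 5.05 on the anti-CD27 arrays. The arrays did not overlap, but the difference of -0.32 ± 0.10 did not pass (adjusted p = 0.254, limma). In a fit of the 6 arrays of these groups alone it did (adjusted p = 0.0425, limma). A pseudogene overlaps Tgfbr3 in the RefSeq annotation, long noncoding RNA genes with no probe set of their own here overlap Tgfbr1, Tgfbr2, Smad3 and Smad7, and the arrays' probe sets were not traced to exons. Tgfbr1, the type I receptor gene, was at 4.83, 4.88 and 4.72 on the combination arrays, against 4.83 on each anti-CD27 array. Its value was the same on 7 of the 9 arrays, to the 6th decimal, and it was not called (difference -0.02 ± 0.05, adjusted p = 1, limma). Tgfbr1 and Tgfbr3 lay below the 95th percentile of negative control probe sets in both groups, which was 5.61 in the combination and 5.83 in anti-CD27, and low levels limit what could be seen of them.

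The receptor-regulated transducers differed from each other. Smad3 had log2 levels of 6.91, 6.94 and 6.82 on the combination arrays, against 6.52 on each of the 3 anti-CD27 arrays. All combination arrays were higher. The difference was 0.37 ± 0.05, a rise of 1.30-fold, with an adjusted p = 0.0105 (limma). The 3 anti-CD27 values were identical, and so were those of 2645 of the 30827 genes, 8.58%, against 5.51% of genes in the combination and 0.717% in anti-PD-1/L1. Their SD of 0 is thus not a measure of the spread between mice, and the limma SE for this gene rests on the other arrays and on the spread of all genes. The call was lost when any anti-CD27 array was left out, and without combination replicate 1 or 2, with adjusted p up to 0.0625 (limma), and under quantile normalization (0.29, adjusted p = 0.055, limma). Its direction was upward in all 18 alternatives.

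Smad2 had log2 levels of 6.23, 6.15 and 6.13 on the combination arrays, against 6.13 on each anti-CD27 array, again with identical values. It did not pass (0.04 ± 0.06, adjusted p = 1, limma). The common partner Smad4 had 7.78, 7.72 and 7.67 on the combination arrays, against 7.94, 7.86 and 7.97 on the anti-CD27 arrays. Its combination arrays were all lower, but the difference of -0.20 ± 0.07 did not pass (adjusted p = 0.317, limma). It did pass under quantile normalization (-0.33, adjusted p = 0.023, limma) and with the level of positive controls as a covariate (-0.27, adjusted p = 0.0394, limma).

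The inhibitors of the pathway did not pass. Smad7, the feedback inhibitor, had log2 levels of 5.99, 5.97 and 5.92 on the combination arrays, against 6.46, 6.35 and 6.14 on the anti-CD27 arrays. The arrays did not overlap, and the difference was -0.36 ± 0.09 (adjusted p = 0.112, limma; the lowest in 18 alternatives was 0.0621). Ski had 6.86, 6.86 and 6.76 on the combination arrays, against 7.16, 7.01 and 7.00 on the anti-CD27 arrays (difference -0.23 ± 0.11, adjusted p = 0.626, limma). Skil had 6.02, 5.94 and 5.77, against 6.17, 6.03 and 6.17 on the anti-CD27 arrays (difference -0.21 ± 0.09, adjusted p = 0.501, limma). Both corepressor genes had lower values on each combination array than on any anti-CD27 array, for Skil by only the second decimal.

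Of the 10 members, 7 did not overlap between the groups, 6 of them lower in the combination and Smad3 higher. Among all genes, 20.6% did not overlap in either direction, 8.50% lower and 12.1% higher. At an unadjusted p under 0.05 (limma), 6 of the 10 members passed, against 9.68% of all genes. That share is over genes of every level, while all 10 members were in the upper 50% by mean. In a fit of those 15413 genes, 793 passed the adjusted threshold (560 higher, 233 lower), against 547 of all 30827. The median difference was -0.21 over the 10 members and 0.00 over all genes tested, for which the 5th to 95th percentile ran from -0.17 to 0.28. By level of the group means, the order anti-CD27, combination, anti-PD-1/L1 from highest to lowest held for Itgae and for 6 members, Tgfbr2, Tgfbr3, Smad4, Smad7, Ski and Skil. Of these 6, only Tgfbr2 passed between the combination and anti-CD27. Tgfbr3 and Smad7 did not pass between the combination and anti-PD-1/L1 either (adjusted p = 0.333 and 0.458, limma). For Tgfb1, Smad2 and Smad3 the combination came above anti-CD27, and of these neighbours only Smad3 differed beyond the test's threshold. Whether any of these differences bears on Itgae was not tested, since the files hold no measure of pathway activity.

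**Figure D2:**
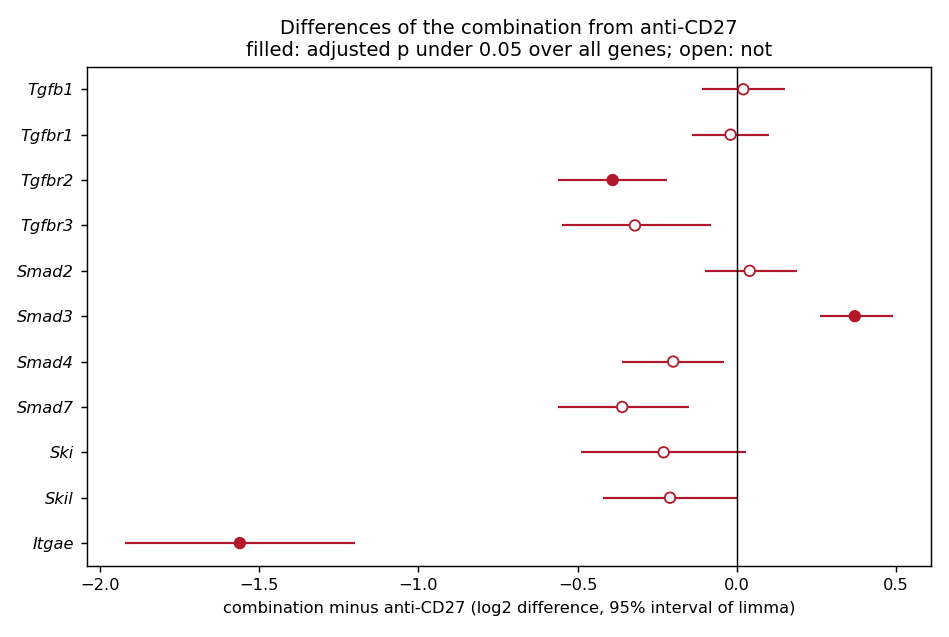
Combination minus anti-CD27 (log2 difference, horizontal axis) for the 10 pathway genes and Itgae, with limma's 95% interval; filled points passed an adjusted p of 0.05 over all genes. Itgae lies at -1.56, Tgfbr2 at -0.39 and Smad3 at 0.37.

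The calls depended on the arrays kept. Of 18 alternatives, Itgae passed in 18 (adjusted p up to 0.0251, limma), Smad3 in 12 and Tgfbr2 in 9. Smad7 passed in none of the 18.

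**Figure D3:**
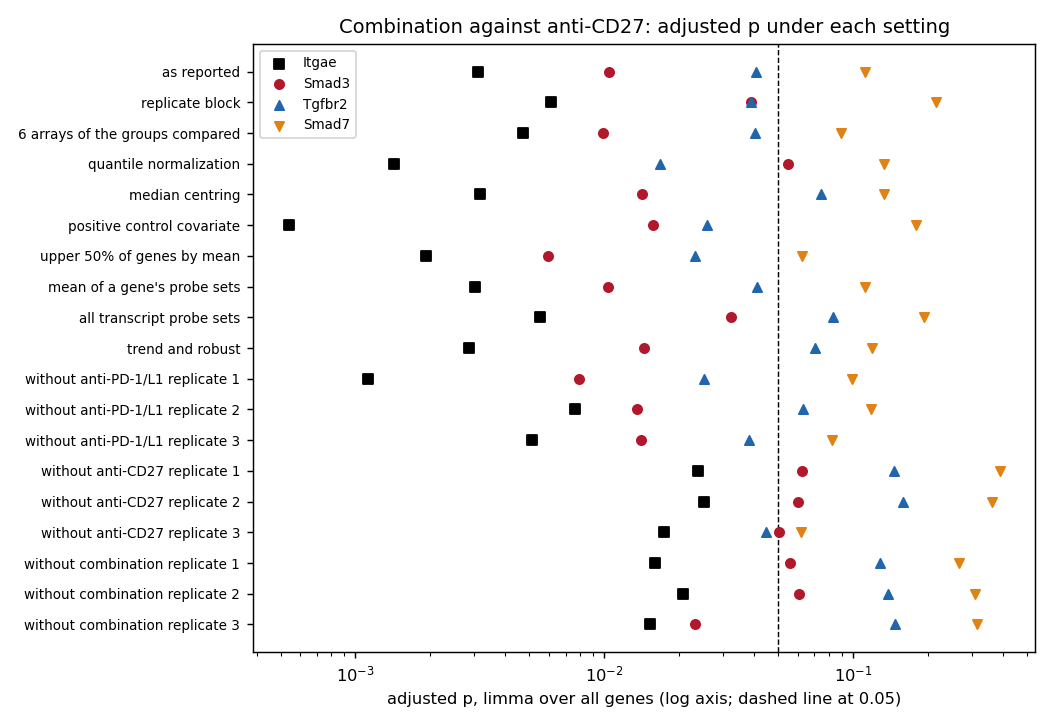
Adjusted p of limma (log axis) for combination against anti-CD27 under the reported setting and 18 alternatives, for Itgae, Smad3, Tgfbr2 and Smad7. Itgae stays left of the dashed line at 0.05 in each, Smad7 right of it in each, and Smad3 and Tgfbr2 cross it.

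Other genes of the pathway were read from lists, which were chosen with earlier results of these data known. None of 14 genes for TGF-beta ligands and their activation passed, and their median difference was -0.03. The largest of these changes was Tgfb3, a ligand gene, at -0.11 ± 0.07 (adjusted p = 0.874, limma). Of 10 genes for related receptors, 1 passed, Eng, which encodes the co-receptor endoglin. It was at 4.73, 4.56 and 4.61 on the combination arrays, against 5.02, 5.06 and 4.86 on the anti-CD27 arrays, without overlap (difference -0.34 ± 0.07, adjusted p = 0.045, limma). Its call was lost in 13 of 18 alternatives, with adjusted p up to 0.201 (limma).

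Of 20 regulators of the signal, 2 fell, Tgif1 and Ldlrad4, and none rose; both also stand among the targets raised by TGF-beta. Tgif1 encodes a homeodomain repressor that binds SMAD complexes, and was at 6.60, 6.61 and 6.32 on the combination arrays, against 7.36, 7.19 and 6.98 on the anti-CD27 arrays. The arrays did not overlap (difference -0.67 ± 0.12, adjusted p = 0.0371, limma). Ldlrad4 encodes a membrane protein that limits SMAD activation, and was at 5.78, 5.78 and 5.66, against 6.10, 6.16 and 6.11 on the anti-CD27 arrays (difference -0.38 ± 0.07, adjusted p = 0.0279, limma). Both calls were lost without any 1 of the combination arrays and without anti-CD27 replicate 1 or 2. Tgif1 also lost its call without anti-PD-1/L1 replicate 3, and Ldlrad4 without anti-CD27 replicate 3, with adjusted p up to 0.161 for Tgif1 and 0.142 for Ldlrad4 (limma). With all transcript probe sets neither passed, and under median centring Ldlrad4 did not.

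Of 9 measured target genes that TGF-beta raises, 3 fell, Itgae, Tgif1 and Ldlrad4, and none rose, with a median difference of -0.11. Itgae is the gene that prompted the question, and without it 2 of 8 fell, both of which are also counted among the regulators. The other measured targets did not pass. Pmepa1, which encodes a feedback inhibitor of SMAD signalling, differed by -0.11 ± 0.09 (adjusted p = 0.95, limma), and Cdkn1a, a cell cycle inhibitor gene, by 0.30 ± 0.09 (adjusted p = 0.186, limma), with an anti-CD27 level below the background mean.

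Of 12 genes that TGF-beta lowers in T cells, 7 rose in the combination and none fell, and the median difference was 1.05. Because this list was chosen with earlier results known, its count and median are not an independent test of the pathway. They included Gzmb and Gzma, the granzyme genes of cytotoxic granules, Il12rb2, a chain of the interleukin 12 receptor, Klrk1, the gene of the activating receptor NKG2D, Klrg1, a marker of effector cells, and Tbx21 and Eomes, the transcription factor genes of effector fate. Gzmb averaged 8.68 ± 0.31 in the combination, against 3.93 ± 0.44 in anti-CD27 (SD, n = 3), a difference of 4.75 ± 0.39 (adjusted p = 0.0013, limma). Il12rb2 averaged 6.67 ± 0.08 in the combination, against 3.28 ± 0.10 in anti-CD27, which is close to the background controls of those arrays at 3.27 (difference 3.39 ± 0.07, adjusted p = 3.77e-07, limma). Gzma rose by 2.78 ± 0.24, Klrk1 by 1.91 ± 0.14, Eomes by 1.10 ± 0.14 and Tbx21 by 1.00 ± 0.08 (limma's SE). Klrg1 averaged 4.65 ± 0.19 in the combination, against 3.29 ± 0.17 in anti-CD27, also close to the background controls (adjusted p = 0.00479, limma). No call among these 7 was lost in any of the 18 alternatives. These genes respond to many signals of activation besides TGF-beta, and their part in the response was not tested. Eomes is also on the list of natural killer cell markers; the array means of the other 3 measured genes of that list lay between 2.36 and 2.46 in the combination and between 2.36 and 2.41 in anti-CD27, and none of the 3 passed.

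Of 10 measured co-factors of nuclear SMADs, 1 fell, Runx1, which encodes a DNA-binding partner of SMAD3 in T cells. It was at 5.90, 5.93 and 5.91 on the combination arrays, against 6.57, 6.33 and 6.35 on the anti-CD27 arrays. The groups did not overlap (difference -0.50 ± 0.07, adjusted p = 0.0134, limma). The call was lost without any 1 of the combination arrays, with adjusted p up to 0.0652 (limma).

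**Figure D4:**
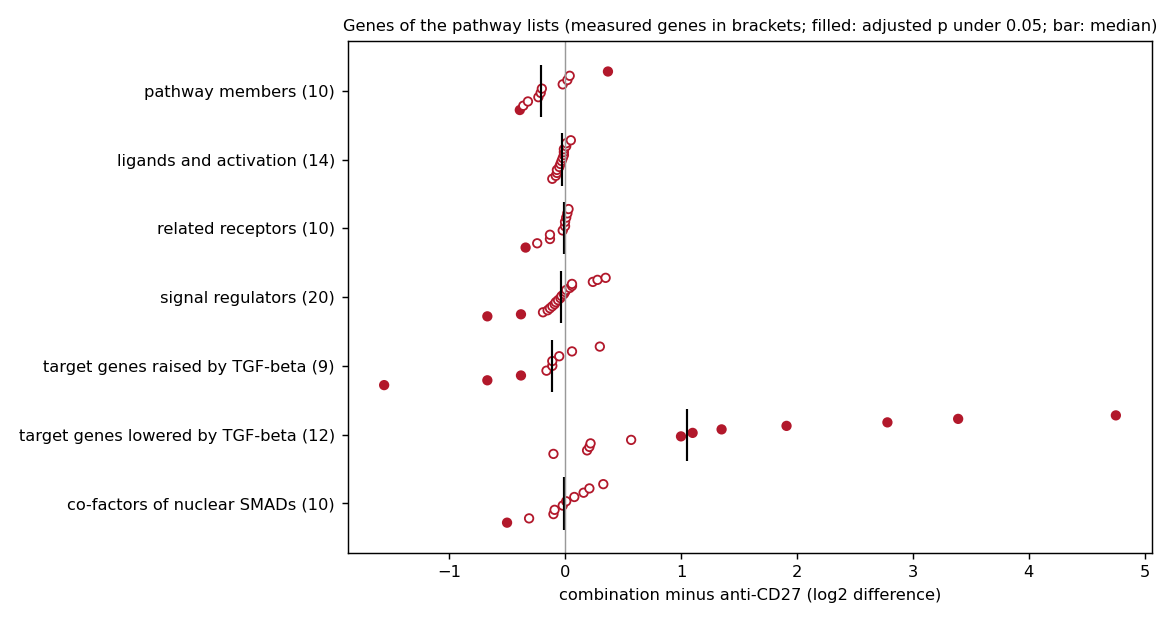
Combination minus anti-CD27 (log2 difference) for every measured gene of the 10 members and 6 pathway lists; filled points passed an adjusted p of 0.05 over all genes and the bar is the list's median. The genes that TGF-beta lowers have a median of 1.05, and the other medians lie between -0.21 and -0.01. The lists were chosen with earlier results of these data known.

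The other comparisons set the 2 CD27-treated groups against anti-PD-1/L1. They share the anti-PD-1/L1 arrays, and most genes passed: 72.2% for the combination (19.0% higher, 53.2% lower) and 70.7% for anti-CD27 (17.1% higher, 53.6% lower). The split of calls turned with the scaling. For the combination, 5860 genes were called higher and 16409 lower, against 7408 higher and 8606 lower after quantile normalization and 12371 higher and 5361 lower after median centring. For anti-CD27, 5286 were called higher and 16510 lower, against 7200 and 8314 after quantile normalization and 11649 and 5186 after median centring. The median difference over all genes was -0.26 in both comparisons.

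In the combination, 7 of the 10 members were called higher than in anti-PD-1/L1 and none lower, with a median difference of 0.75. In anti-CD27, 9 were called higher and none lower, with a median of 0.97. The same 7 and 9 members did not overlap with anti-PD-1/L1. Among all genes, 73.4% did not overlap for the combination (18.9% higher, 54.5% lower) and 72.5% for anti-CD27 (17.4% higher, 55.0% lower). The cell markers moved with these differences. Of the 7 CD8 T cell markers, 5 were higher and 1 lower than in anti-PD-1/L1 in each CD27-treated group, with a median difference of 0.98 in the combination and 1.03 in anti-CD27, as large as those of the members. Cd3e, a chain of the T cell receptor complex, was higher by 2.06 ± 0.17 in the combination and by 2.17 ± 0.17 in anti-CD27. The B cell, platelet, erythroid and stromal lists had medians of -0.50, -0.49, -0.43 and -0.68 in the combination and of -0.45, -0.38, -0.44 and -0.63 in anti-CD27. In anti-PD-1/L1, the B cell array means were 4.06 to 4.10 and the erythroid ones 3.83 to 3.94, at or below a background mean near 4.06. Background probe sets differed by -0.81 in the combination and by -0.79 in anti-CD27, so these medians are not read as changes in cell number. The part of the marker and background shifts in the members' differences was not tested. The share of members called was near that of all genes in the combination, and higher was the less frequent direction among all genes as deposited but the more frequent one after median centring. All 10 members were among the 15413 genes in the upper 50% by mean. Of those genes, 5662 were called higher and 6278 lower in the combination, and 5114 higher and 6368 lower in anti-CD27. The largest difference was that of the ligand gene. Tgfb1 had log2 levels of 8.01, 7.95 and 7.87 in the combination and 8.00, 7.87 and 7.90 in anti-CD27, against 5.76, 5.80 and 5.79 in anti-PD-1/L1. No array of either CD27-treated group came near the anti-PD-1/L1 arrays, and the difference was 2.16 ± 0.06 in the combination (adjusted p = 3.4e-08, limma) and 2.14 ± 0.06 in anti-CD27 (adjusted p = 4.38e-08, limma).

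Tgfbr2 averaged 8.03 ± 0.03 in the combination and 8.42 ± 0.13 in anti-CD27 (SD, n = 3), against 6.64, 6.54 and 6.47 on the anti-PD-1/L1 arrays. Its difference was 1.47 ± 0.07 in the combination (adjusted p = 9.18e-07, limma) and 1.87 ± 0.07 in anti-CD27 (adjusted p = 2.33e-07, limma). Smad3 averaged 6.89 ± 0.07 in the combination and was at 6.52 in anti-CD27, against 5.23, 5.32 and 5.28 on the anti-PD-1/L1 arrays. It differed by 1.61 ± 0.05 in the combination (adjusted p = 7.49e-08, limma) and 1.24 ± 0.05 in anti-CD27 (adjusted p = 3.08e-07, limma). For both genes, all arrays of the 2 CD27-treated groups were above all anti-PD-1/L1 arrays. Smad4 was higher by 0.64 ± 0.07 in the combination and by 0.85 ± 0.07 in anti-CD27; the anti-PD-1/L1 arrays were at 7.22, 7.02 and 7.00, below all others. The corepressor genes were higher too, Ski by 0.85 ± 0.11 in the combination and 1.09 ± 0.11 in anti-CD27, and Skil by 0.88 ± 0.09 in the combination and 1.09 ± 0.09 in anti-CD27. On the anti-PD-1/L1 arrays, Ski was at 5.83, 6.26 and 5.83 and Skil at 5.01, 4.91 and 5.18, without overlap with the other groups.

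Smad2 was called higher in the combination (0.22 ± 0.06, adjusted p = 0.0137, limma) and in anti-CD27 (0.17 ± 0.06, adjusted p = 0.0358, limma), but under quantile normalization it was called lower, by 0.17 in the combination and by 0.16 in anti-CD27. Smad7 was higher in anti-CD27 (0.43 ± 0.09, adjusted p = 0.0024, limma) and not called in the combination (0.08 ± 0.09, adjusted p = 0.458, limma), where quantile normalization called it lower at -0.30. Tgfbr3 was higher in anti-CD27 (0.43 ± 0.10, adjusted p = 0.00498, limma) and not called in the combination (0.11 ± 0.10, adjusted p = 0.333, limma). Tgfbr1 passed in neither, and its difference in the combination, -0.02, was 0.36 under median centring. Itgae was higher by 1.38 ± 0.16 in the combination (adjusted p = 8.44e-05, limma) and by 2.94 ± 0.16 in anti-CD27 (adjusted p = 1.46e-06, limma). Its anti-PD-1/L1 arrays, at 6.07, 5.53 and 5.46, were below all others. Their mean of 5.69 was below the 95th percentile of the negative controls of those arrays, 5.98, which limits the size read from these differences.

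The level of the positive controls moved with these differences. This level and the group nearly coincide over the arrays, so a fit with both cannot tell them apart. Calls lost in that fit are therefore not read as the absence of a treatment difference. With the positive control level as a covariate, 2 of the 7 calls were left in the combination, Tgfb1 and Smad3, and 3 of the 9 in anti-CD27, Tgfb1, Tgfbr2 and Smad3. Itgae then differed by -0.55 in the combination (adjusted p = 0.43, limma). In anti-PD-1/L1, only Tgfbr2 and Smad4 of the 10 members averaged above the 95th percentile of the negative controls of those arrays, 5.98, against 8 of 10 in each CD27-treated group.

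**Figure D5:**
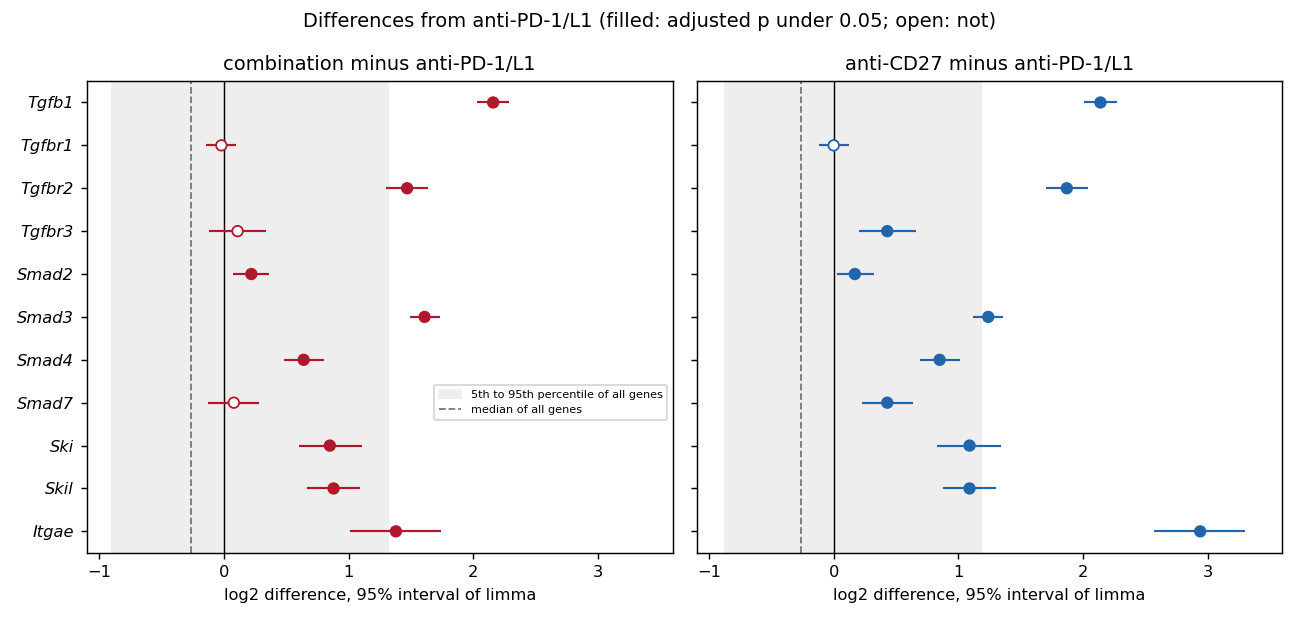
Log2 difference from anti-PD-1/L1, with limma's 95% interval, for the combination (left) and anti-CD27 (right). Filled points passed an adjusted p of 0.05, the band spans the 5th to 95th percentile of all genes and the dashed line is their median. Tgfb1 lies at 2.16 and 2.14, outside the band in both panels.

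The lists differed from anti-PD-1/L1 in both directions, and so did all genes. Of all genes, 19.0% were called higher and 53.2% lower in the combination, and 17.1% higher and 53.6% lower in anti-CD27. Of 14 ligand and activation genes, 2 were higher and 11 lower in the combination, and the same counts held in anti-CD27. Ltbp3, which encodes a latent TGF-beta binding protein, differed by -0.88 ± 0.06 in the combination, and Itgav, an integrin chain that activates latent TGF-beta, by 0.87 ± 0.07. Ltbp2, of the same family as Ltbp3, differed by -0.77 ± 0.08 in the combination and by -0.72 ± 0.08 in anti-CD27. Of 10 related receptors, 1 was higher and 7 lower in the combination, and 2 were higher and 7 lower in anti-CD27. Bmpr2, the type II receptor gene for bone morphogenetic proteins, averaged 4.12 in the combination and 4.25 in anti-CD27, against 3.34 in anti-PD-1/L1, where it was below the background mean of 4.06. The activin receptor gene Acvr2b differed by -0.64 ± 0.09 in the combination and by -0.63 ± 0.09 in anti-CD27. Acvr1c, of the same family, was below the background mean in all 3 groups, and its differences are not read as changes. In anti-PD-1/L1, 7 of the 10 related receptors and 7 of the 14 ligand and activation genes were not above the background mean. Nor were 3 of the 20 regulators, 3 of the 9 genes that TGF-beta raises, 3 of the 12 that it lowers and 1 of the 10 co-factors. Of 20 regulators, 11 were higher and 6 lower in the combination, and 10 were higher and 6 lower in anti-CD27. Trim33, a chromatin-binding partner of SMAD2 and SMAD3, was higher by 2.45 ± 0.11 in the combination and by 2.39 ± 0.11 in anti-CD27. The ubiquitin ligase gene Wwp1 was higher by 2.01 ± 0.10 and the deubiquitinase gene Usp15 by 1.53 ± 0.09 in the combination.

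Of 9 genes that TGF-beta raises, 3 were higher (Itgae, Tgif1 and Ldlrad4) and 4 lower than in anti-PD-1/L1, in the combination as in anti-CD27. Beside these and the counts below stand the shares over all genes, 19.0% higher and 53.2% lower in the combination. In anti-CD27 those shares were 17.1% and 53.6%. Tgif1 was higher by 0.89 ± 0.12 in the combination and by 1.56 ± 0.12 in anti-CD27, while Cdkn2b, a cell cycle inhibitor gene, differed by -0.81 ± 0.07 in the combination. Of 12 genes that TGF-beta lowers, 10 were higher and 1 lower in the combination, while 4 were higher and 6 lower in anti-CD27. The 1 lower in the combination was Il2, and the 6 in anti-CD27 included Il2 and Fasl. Both genes were below the background mean in all 3 groups, and their differences are not read as changes. Gzmb was higher by 2.36 ± 0.39 in the combination (adjusted p = 0.000688, limma) and differed by -2.38 ± 0.39 in anti-CD27 (adjusted p = 0.000691, limma). Eomes was higher by 1.72 ± 0.14 in the combination. Il12rb2 averaged 6.67 in the combination, against 3.43 in anti-PD-1/L1, where it was below the background mean of 4.06. In anti-CD27 Gzma differed by -1.91 ± 0.24 and Ifng, the interferon gamma gene, by 1.28 ± 0.28. Of 10 co-factors, 8 were higher and 2 lower in the combination, and 7 were higher and 2 lower in anti-CD27. Crebbp, the gene of a histone acetyltransferase that SMADs recruit, was higher by 3.16 ± 0.10 in the combination and by 3.47 ± 0.10 in anti-CD27. Ep300, its paralogue, was higher by 3.00 ± 0.10 in the combination, and the corepressor gene Sin3a by 2.19 ± 0.06 in the combination and 2.11 ± 0.06 in anti-CD27. With the positive control covariate, at most 4 genes of any of these 6 lists passed in either comparison.

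Some genes followed a member closely over the 9 arrays, by the root mean square difference of log2 values centred on each gene's mean, among 9515 genes with a mean of at least 5 (9516 for Tgfbr3). For Tgfb1 the nearest were Sec31a (0.045) and Ankrd17 (0.049), for Tgfbr2 Zfp217 (0.072) and Jade2 (0.075), and for Smad3 Ctr9 (0.061) and Nol10 (0.065). For Smad7 they were Rarg (0.070) and Eya2 (0.074), for Ski Dhx57 (0.063) and Traf3ip3 (0.075), for Skil Asxl2 (0.063) and Kmt5b (0.067), and for Smad4 Arhgap9 (0.054) and Trim24 (0.057). The nearest to Smad2 were Dhrs1 (0.021) and Mmadhc (0.024), and to Tgfbr3 Retreg1 (0.085) and Ap3m2 (0.086). Likeness is a description of these 9 arrays, which fall into 3 groups with the anti-PD-1/L1 arrays apart.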

How the data were processed

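The deposited log2 values, 1 per probe set and array, came from the authors' RMA normalization. The submitters' processing notes name the package oligo, version 1.38.0. RMA subtracts background, brings arrays to a common distribution and summarises probes, and the genome build behind the probe sets is not given in the sources used here. Of 65956 transcript probe sets, 31388 named 1 gene in GEO's platform annotation (symbols updated by a RefSeq gene table), 1362 several and 33206 none; the last 2 kinds were left out. Of 423 genes with more than 1 probe set, the one with the highest mean over 9 arrays was kept, giving 30827 genes with no filter on low values. No column of other series was present.

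A linear model with 1 mean for each group was fitted in limma 3.58.1 (R 4.3.3) to the 9 arrays together, with 6 residual degrees of freedom, two-sided tests and Benjamini-Hochberg adjustment over the 30827 genes; the call was set at 0.05. The fit was tested on simulated data. Values are means with the SD over 3 mice; differences carry limma's SE. The mice were separate animals, per the labels' protocols. The members and lists were chosen with earlier results of these data known. Named genes were all members, Itgae and, per list, up to 6 called genes by size of change (3 against anti-PD-1/L1), or the largest change where none was called; Haspin, Tbx21, Pmepa1, Cdkn1a and the markers Ikzf2, Itgam, Pecam1 and Cd3e were added after their values were seen. Alternatives were the replicate number as a block, the 6 arrays compared, quantile normalization, median centring, the positive controls as a covariate, the upper 50% of genes by mean, other probe set rules, a trended robust fit and leaving out each array.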

Additional observations from a re-analysis of the deposited data

How the results depend on the processing

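Over the 3 comparisons and 11 genes (10 members and Itgae), 594 alternative values were computed: 536 kept the direction and the side of the threshold, 33 kept the direction and lost the call, 6 gained a call and 19 changed sign. Tgfbr1 between anti-CD27 and anti-PD-1/L1 had a reported difference of 0, with no direction to keep. Its alternatives, from -0.08 to 0.36, were sorted by the side of the threshold alone. Leaving out 1 array gave 0 to 2 members called for combination against anti-CD27 (2 as reported), 6 to 7 for combination against anti-PD-1/L1 (7) and 8 to 9 between anti-CD27 and anti-PD-1/L1 (9). For combination against anti-CD27, median centring, all transcript probe sets and the trended robust fit each gave 1 member called. The positive control covariate left 2 for combination against anti-PD-1/L1 and 3 between anti-CD27 and anti-PD-1/L1; the cause was not tested.

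For combination against anti-CD27, signs changed for Tgfb1 under quantile normalization (-0.09) and without anti-CD27 replicate 2 or combination replicate 1 (-0.01 in both; -0.01 to 0.06 over arrays left out), for Tgfbr1 without combination replicate 3 (0.02; range -0.05 to 0.02) and for Smad2 under quantile normalization (-0.01) and with the covariate (-0.02). For combination against anti-PD-1/L1 they changed for Tgfbr1 under quantile normalization (0.08), median centring (0.36) and without combination replicate 3 (0.02; range -0.05 to 0.02). Tgfbr3 changed with the covariate (-0.50) and without anti-PD-1/L1 replicate 3 (-0.0037; range -0.0037 to 0.20), Smad2 under quantile normalization (-0.17) and the covariate (-0.41), Smad4 with the covariate (-0.06), Smad7 under quantile normalization (-0.30) and Itgae with the covariate (-0.55). Between anti-CD27 and anti-PD-1/L1 they changed for Tgfbr3 with the covariate (-0.13) and Smad2 under quantile normalization (-0.16) and with the covariate (-0.39). The cause was not tested.

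Over 9 pairs of arrays with the same replicate number, the correlation of deviations from group means ran from -0.196 to 0.159, over 0.1 in 1. With 3 arrays per group, such correlations cannot show whether mice of the same number were handled together. With the replicate block, members called numbered 2, 7 and 9 in the 3 comparisons, and all genes called for combination against anti-CD27 numbered 376, against 547 without it, 1659 with the 6 arrays alone and 169 to 1224 with 1 array left out. With the covariate, genes called numbered 1935 for combination against anti-PD-1/L1 (22269 without it) and 2434 between anti-CD27 and anti-PD-1/L1 (21796). Signal near the negative controls limits Tgfbr1 and Tgfbr3 in all groups, and most members and Itgae in anti-PD-1/L1.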
